A study of Mus musculus with 4 samples.

Results

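The circles described here come from 4 mouse genes of the muscle cell surface and of excitation-contraction coupling: Ncam1, Jph1, Ryr1 and Cacna1s. The files carry no gene symbols, so members were chosen by position in the mm9 genome, as every circle that lies on the gene's strand within chromosome 9 from 49310000 to 49608000 (minus, Ncam1), chromosome 1 from 16974000 to 17088000 (minus, Jph1), chromosome 7 from 29788000 to 29911000 (minus, Ryr1) or chromosome 1 from 137949000 to 138017000 (plus, Cacna1s). This gave 324 of the 69136 circles in the files: 158 in the Ncam1 window, 3 in Jph1, 145 in Ryr1 and 18 in Cacna1s. Of the 324, 5 were exonic and 319 intronic. An exonic circle joins the end of an exon to the start of the same or an earlier exon. An intronic circle begins at a 5' splice site and ends inside the intron. RefSeq's gene table for another build (GRCm38.p6) has the 4 symbols on the same chromosomes, and gives gene lengths of 297265, 155819, 121840 and 67017 nt for Ncam1, Jph1, Ryr1 and Cacna1s against windows of 298001, 114001, 123001 and 68001 nt. The Jph1 window is thus shorter than that gene model.

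NCAM1 is an adhesion molecule of the immunoglobulin superfamily that sits on the surface of differentiating and fusing muscle cells and is made in several spliced forms. Excitation-contraction coupling turns an electrical signal of the muscle membrane into calcium release from the sarcoplasmic reticulum. CACNA1S is the pore-forming subunit of the L-type calcium channel and senses the voltage in the transverse tubule, RYR1 is the channel that releases the stored calcium, and JPH1 (junctophilin 1) tethers the surface membrane to the reticulum so that the other two face each other. Circular RNAs form when a downstream splice site joins an upstream one, or when an intron lariat is not opened. In a lariat the branch point usually lies close to the intron's 3' end.

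All 4 libraries came from C2C12, an established mouse myoblast line, after 3 to 4 days in differentiation medium with 2% horse serum, and carried no genetic change named in the labels. Total RNA (2 libraries) was compared with RPAD RNA (2 libraries), in which RNase R digestion for 30 min, polyadenylation of what linear RNA remains and removal of poly(A)+ RNA deplete linear molecules. The labels do not tie the replicates to separate cultures. The p-values therefore reflect only the scatter among these libraries, and that scatter may be technical. The protocol in the labels names HeLa RNA for the RNase R reaction although the cell line of each library is given as C2C12, a discrepancy that was not resolved. Markers of myotubes and of other cell types could not be placed in these files and were not analysed here.

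The total RNA libraries held 38850 and 35981 back-splice reads and the RPAD libraries 150478 and 191246. Levels are therefore given as reads per 10000 back-splice reads of a library, with exact 95% (Clopper-Pearson) intervals that cover counting error only, since copies made by PCR were not marked. They are levels among circles and not amounts per cell, and fewer cells with a circle and fewer copies per cell cannot be told apart in bulk RNA. The RPAD libraries differed much from each other. RPAD 1 read 273 exonic circles 20 times or more, of which 188 (68.9%; 63.0 to 74.3) were at 0 in RPAD 2, and for the 348 that RPAD 2 read so often, 256 (73.6%; 68.6 to 78.1) were at 0 in RPAD 1. A circle read often in one RPAD library was thus mostly at 0 in the other.

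The Ncam1 locus held more reads in both RPAD libraries than in either total RNA library, and Jph1 held fewer. Total RNA gave 20 and 8 Ncam1 reads, against 1034 and 966 from RPAD. Per 10000 back-splice reads these were 5.15 (3.14 to 7.95) and 2.22 (0.960 to 4.38) against 68.7 (64.6 to 73.0) and 50.5 (47.4 to 53.8). The group means were 3.69 ± 2.07 and 59.6 ± 12.9 (SD, n = 2 each), a ratio of 16.2. With a library left out the ratio lay between 11.6 (without total RNA 2) and 26.8 (without total RNA 1). The exact permutation test (two-sided) gave p = 0.333, which no split of 2 against 2 libraries can undercut. Among the 6531 hosts (a host sums all circles of linked transcript models, or of 1 of the 4 windows), Ncam1 ranked 20 and 32 by reads in RPAD, against 382 and 965 in total RNA.

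For Jph1 total RNA gave 30 and 32 reads, RPAD 1 gave 7 and RPAD 2 none. That is 7.72 (5.21 to 11.02) and 8.89 (6.08 to 12.6) per 10000 in total RNA and 0.465 (0.187 to 0.958) in RPAD 1. The 0 in RPAD 2 had an upper 95% limit of 0.193 per 10000, and the level of 3 reads there, the floor used for fold bounds, was 0.157. The exact permutation p for the group means, 8.31 ± 0.828 and 0.233 ± 0.329 (SD, n = 2 each), was 0.333. The groups did not overlap for either Ncam1 or Jph1. Of all tested hosts, 6.95% were higher in RPAD without overlap, as Ncam1 was, and 39.2% were lower, as Jph1 was.

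Over all entries, the groups overlapped at Ryr1 and Cacna1s. Ryr1 was read 24 and 49 times in total RNA, yet only 2 times in RPAD 1 and as many as 427 times in RPAD 2. Per 10000 these counts were 6.18 (3.96 to 9.19), 13.6 (10.1 to 18), 0.133 (0.0161 to 0.480) and 22.3 (20.3 to 24.5), so the lowest and the highest level of the gene were both in RPAD. The group means (9.90 ± 5.26 and 11.2 ± 15.7; SD, n = 2 each) gave an exact permutation p of 1.0. The difference of 1.33 per 10000 became -9.77 without RPAD 2, 12.4 without RPAD 1 and -2.39 without total RNA 1.

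Cacna1s had at most 22 reads in a library. Total RNA gave it 12 and 2 reads, RPAD 1 gave 22 and RPAD 2 none, or 3.09 (1.60 to 5.39), 0.556 (0.0673 to 2.01), 1.46 (0.916 to 2.21) and 0 per 10000, the last with an upper 95% limit of 0.193. With means of 1.82 ± 1.79 and 0.731 ± 1.03 (SD, n = 2 each), the exact permutation p was 0.667. Without total RNA 1 the difference of -1.09 became 0.175. Where entries with a score of 0 alone were kept, per 10000 such reads, the groups did not overlap at either gene. The means were then 7.41 in total RNA and 1.42 in RPAD for Ryr1, and 2.05 and 0 for Cacna1s (exact permutation p = 0.333 for each). The share of all hosts with that order was not computed for score 0 alone. Over all entries 39.2% of tested hosts were lower in RPAD without overlap. The score is a number from 0 to 3 that the files attach to each entry and no label explains. Circles of both Cacna1s and Ryr1, all intronic, were thus read in total RNA 1, total RNA 2 and RPAD 1. This rests on only 2 reads for Cacna1s in total RNA 2 and 2 reads for Ryr1 in RPAD 1. In RPAD 2 circles of Ryr1 were read and none of Cacna1s.

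**Figure D1:**
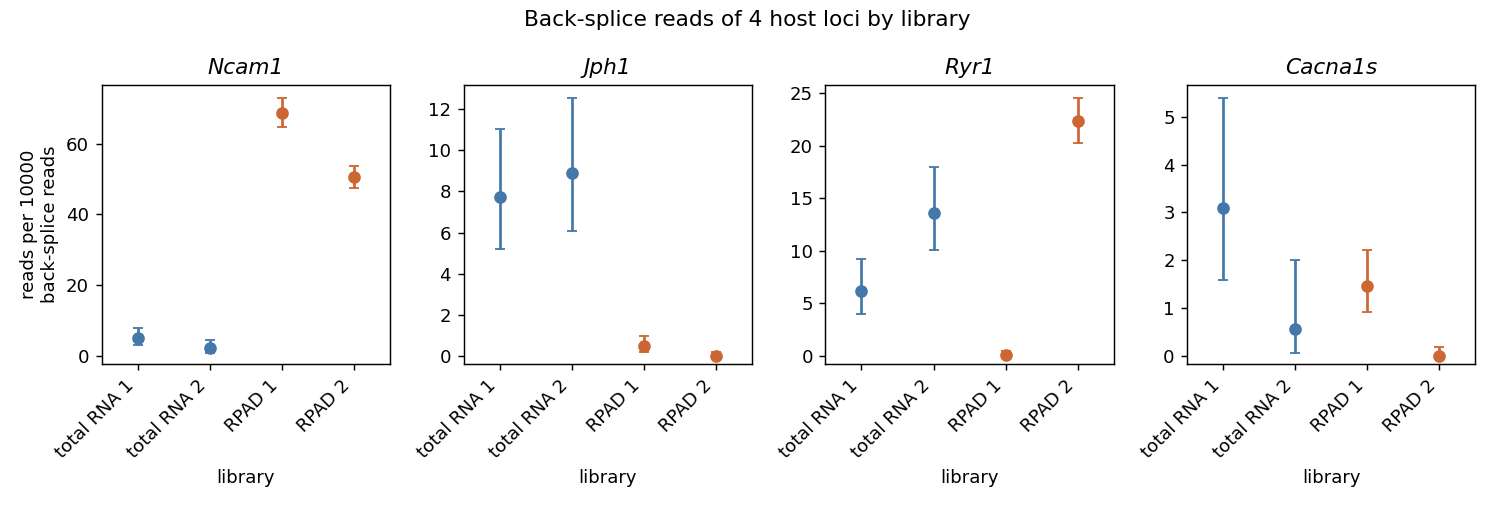
Reads of each locus per 10000 back-splice reads (y axis, scale differs by panel) in the 4 libraries (x axis; blue total RNA, orange RPAD); bars are exact 95% counting intervals. Ncam1 lies at 68.7 and 50.5 in RPAD against 5.15 and 2.22 in total RNA, Jph1 is higher in total RNA, and the 2 RPAD libraries of Ryr1 lie at 0.133 and 22.3.

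In the test over all hosts none of the 4 loci passed the threshold. edgeR's quasi-likelihood test, with Benjamini-Hochberg adjusted p under 0.05 as the threshold, called 0 of 1424 tested hosts (0.0%), with 376 at an unadjusted p under 0.05; DESeq2 called 104 of them (7.3%), none of the 4 loci among them. The log2 fold change (RPAD over total RNA, relative to the other tested hosts) was 3.75 (SE 1.28) for Ncam1, with an edgeR adjusted p of 0.137 (0.0157 to 1.00 over its alternatives). The median of all tested hosts was -0.93, and 96.8% of them had a value at or below that of Ncam1. At an unadjusted p under 0.05, 1.19% of hosts were higher in RPAD, Ncam1 included (edgeR unadjusted p = 0.0310), and 25.2% were lower. Groups that did not overlap, with RPAD higher as in Ncam1, were seen in 6.95% of hosts; with RPAD lower as in Jph1, they were seen in 39.2%.

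The log2 fold change of Jph1 was -5.50 (SE 2.74; edgeR adjusted p = 0.339). With score 0 entries alone it was -9.54 (edgeR adjusted p = 0.0983). For Cacna1s it was -1.69 (SE 2.41; edgeR adjusted p = 0.880) and for Ryr1 0.06 (SE 2.40; edgeR adjusted p = 0.996). With 1 RPAD library left out, the spread rests on the total RNA pair, and the remaining RPAD library is assumed to vary like it. Ncam1 then passed in both fits, with log2 fold changes of 3.73 without RPAD 1 and 3.83 without RPAD 2 (edgeR adjusted p = 0.0157 and 0.0265). Jph1 passed without RPAD 1 (-9.22; edgeR adjusted p = 0.0157; 0.0157 to 1.00 over its alternatives), as did Cacna1s (-7.07; edgeR adjusted p = 0.0280; 0.0280 to 1.00), and Ryr1 passed without RPAD 2 (-6.39; edgeR adjusted p = 0.0265; 0.0265 to 1.00). Those same fits called 526 and 557 of the 1424 hosts.

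**Figure D2:**
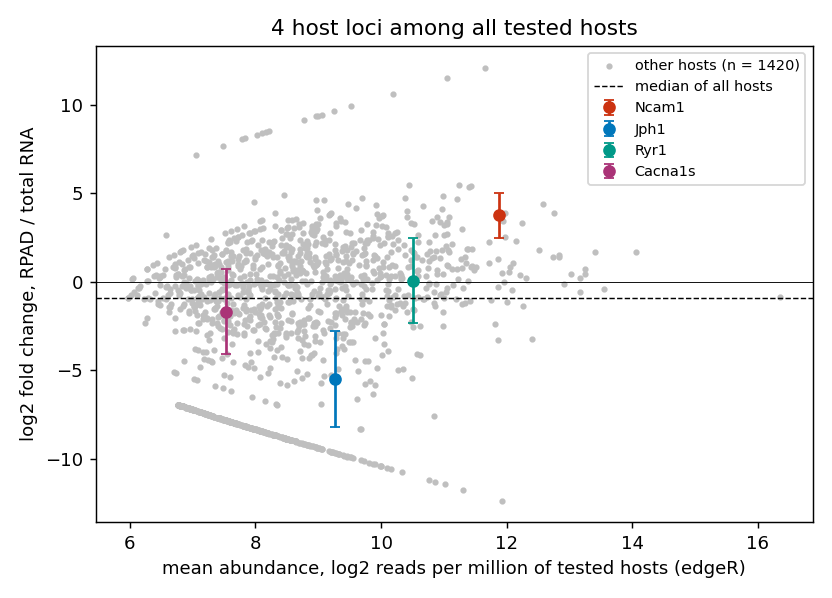
Log2 fold change of RPAD over total RNA (y axis) against mean abundance (x axis, log2 CPM as edgeR gives it) for the 1424 tested hosts; coloured points are the 4 loci with SE bars, and the dashed line is the median of -0.93. The straight bands at the top and bottom are hosts with 0 reads in one group. Ncam1, at 3.75, lies above most hosts, Ryr1 at 0.06 and Cacna1s at -1.69 lie near the median, and Jph1 lies at -5.50.

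Most Ncam1 reads of RPAD 1 came from 1 intron, followed by a single-exon circle, and most of those of RPAD 2 came from that circle alone. The single-exon circle spans 801 nt, chromosome 9 from 49314958 to 49315758, and is numbered exon 17 in one transcript model and exon 21 in another. The intron before it is 935 nt long and the one after it 1289 nt. RPAD 1 read it 245 times and RPAD 2 728 times, while each total RNA library was at 0. That is 16.3 and 38.1 reads per 10000, and at least 71.0-fold higher in RPAD than the floor of 3 reads over the total RNA group, a bound that covers only counting error. The bound was 34.1-fold without total RNA 1, 36.9-fold without total RNA 2 and 40.6-fold without RPAD 2. It ranked 61 of 499 exonic circles in RPAD 1 and 29 of 777 in RPAD 2.

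In the edgeR test of all circles this Ncam1 circle had an unadjusted p of 0.0196 and an adjusted p of 0.179. Its adjusted p was 0.0817 with DESeq2 and 0.730 in edgeR without the low-count filter. The edgeR test called 0 of 924 circles (0.0%), with 162 at an unadjusted p under 0.05. DESeq2 also called 0. Without RPAD 1 the adjusted p of the Ncam1 circle was 2.7e-05 and without RPAD 2 it was 0.00717 (edgeR in both). Of the tested circles, 1.73% were higher in RPAD at an unadjusted p under 0.05 and 10.7% were higher without overlap of the groups. Both RPAD libraries read 19 exonic circles 200 times or more, and 3 of these (15.8%; 3.38 to 39.6), this one included, were at 0 in total RNA. The score of this circle was 1 in RPAD 1 and 0 in RPAD 2.

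The only other exonic circle of Ncam1 joins exon 6 (173 nt) and exon 7 (143 nt), chromosome 9 from 49365201 to 49373146, and had 2 reads in total RNA 1 alone. It falls under no naming rule, like the Jph1 circles of exon 4 and of exons 3 to 5, and all 3 were named after their values were seen.

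Ncam1's 156 intronic circles started at 3 splice sites. The site at 49351115 starts an intron numbered 12 (19364 nt) in one transcript model and 13 (1108 nt) in another, and is called intron 12 here. RPAD 2 lists its circles under the 1108 nt intron and the other libraries under the 19364 nt one. RPAD 1 gave 736 reads at this site and RPAD 2 gave 81, against 16 and 6 from total RNA. The site at 49377930 (intron 1 or 2 by model, 1276 nt) gave 53 and 88 RPAD reads and 2 from each total RNA library, and these were the only 2 of the 19 splice sites of the 4 loci that were read in all 4 libraries. The site at 49374779 (intron 5, 1088 nt) held 69 reads in RPAD 2 and 0 elsewhere.

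The make-up of the Ncam1 signal was therefore unlike in the 2 RPAD libraries. Its read counts there were close (1034 and 966), while its levels were 68.7 and 50.5 per 10000, with intervals that did not meet. The 801 nt circle made up 23.7% (21.1 to 26.4) of Ncam1 reads in RPAD 1 and 75.4% (72.5 to 78.1) in RPAD 2. The site of intron 12 made up 71.2% (68.3 to 73.9) and 8.39% (6.71 to 10.3). In total RNA that site gave 16 of 20 reads and 6 of 8. Summed by junction site (an added unit: all intronic circles of a 5' splice site, or 1 exonic circle), the log2 fold change was 2.63 (SE 2.2) at intron 12 and 2.44 (SE 1.79) at intron 1. Their edgeR adjusted p-values were 0.695 and 0.592, and 0 of 1401 junction sites were called by edgeR (0.0%; 416 at an unadjusted p under 0.05), against 39 by DESeq2 (2.78%), no member among them. At an unadjusted p under 0.05, 1.36% of junction sites were higher in RPAD, the 801 nt circle included, and 28.3% were lower, the Jph1 circle of exons 4 and 5 included. Both total RNA levels lay below both RPAD levels at the 801 nt circle, at intron 1 and at intron 12, an order seen in 8.92% of junction sites (38.3% had the opposite one). At intron 12 the nearest levels were 4.12 per 10000 in total RNA 1 and 4.24 in RPAD 2. Without RPAD 1 the value at intron 12 was 0.26. With score 0 entries alone the value at intron 1 was 7.08 (edgeR adjusted p = 0.186), and that site then had no reads in total RNA.

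**Figure D3:**
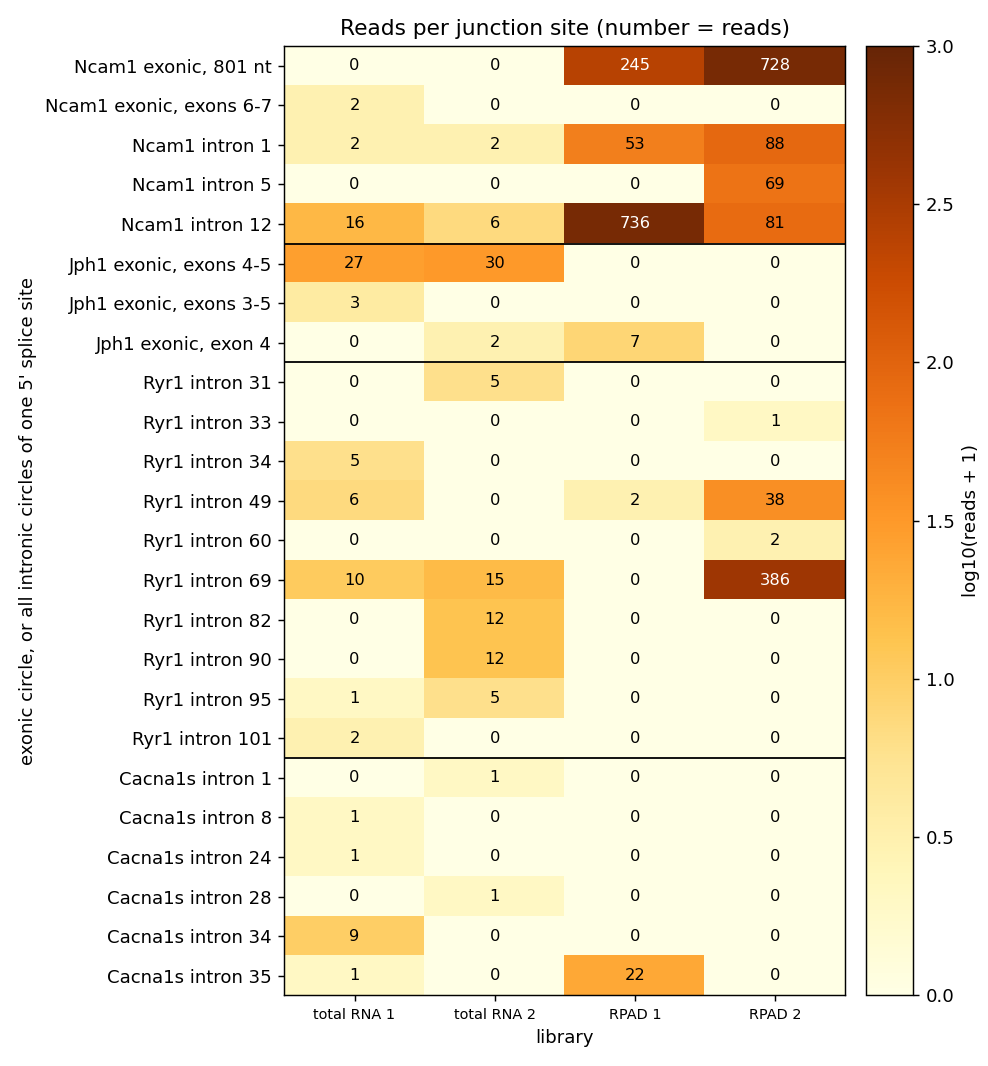
Reads per library (columns) for each exonic circle and each 5' splice site with intronic circles (rows) of the 4 loci; the printed number is the read count and the colour its log10(reads + 1). Reads of RPAD 1 and RPAD 2 pile up on different rows: 736 against 81 at Ncam1 intron 12, 245 against 728 on the 801 nt circle, and 0 against 386 at Ryr1 intron 69.

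The ends of the Ncam1 intronic circles were spread base by base over a short stretch and did not sit at 1 position. At intron 12, RPAD 1 listed 74 different ends between 222 and 310 nt from the splice site, and the most read one held 39 of 736 reads (5.30%). RPAD 2 listed 39 ends there, of which 34 lay between 222 and 305 nt and 5, with 8 reads in all, between 99 and 121 nt. The 2 libraries shared 31 of these ends, 41.9% of the RPAD 1 list and 79.5% of the RPAD 2 list. RPAD 1 listed most positions of its stretch, so sharing with it carries little information. By reads, the median distance was 256 nt and 254 nt in total RNA and 263 nt and 246 nt in RPAD.

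By number of ends, intron 12 ranked 11 among 1304 splice sites with intronic circles in RPAD 1, where the median site had 5 ends, and 187 among 1672 in RPAD 2. Of the 3 most read intronic circles of Ncam1, all from this site, that from 49350825 (291 nt) had 39 reads in RPAD 1, 1 in RPAD 2 and 0 in total RNA. The circle from 49350880 (236 nt) had 37 and 2 in RPAD and 0 in total RNA, and that from 49350888 (228 nt) had 32 and 2 in RPAD and 2 in total RNA 1. The circle from 49350832 (284 nt) was the only one of the 324 listed in every library, with 10 and 4 reads in RPAD against 2 and 3 from total RNA, and was named after its values were seen. Its log2 fold change was -1.05 (SE 1.81; edgeR adjusted p = 0.999).

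At intron 1 of Ncam1 the ends lay between 103 and 187 nt in RPAD 1 (15 ends) and between 102 and 141 nt in RPAD 2 (29 ends). The 2 lists shared 9 ends, 60.0% of the first and 31.0% of the second. Both total RNA libraries listed an end at 115 nt, with 1 read each.

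Jph1 gave exonic circles alone. The main one joins exons 4 (644 nt) and 5 (96 nt) into 740 nt, chromosome 1 from 16987545 to 16994615. Its 27 and 30 reads in total RNA are 6.95 and 8.34 per 10000. RPAD held none, which is at least 86.8-fold lower by the same floor of 3 reads over the group (48.6-fold without RPAD 1 and 38.2-fold without RPAD 2). Like the bound for the Ncam1 circle, this one covers only counting error. It ranked 108 of 2067 exonic circles in total RNA 1 and 75 of 1821 in total RNA 2. The intron before it is 11504 nt and the one after it 574 nt.

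For the exon 4 to 5 circle, edgeR gave a log2 fold change of -9.59, an unadjusted p of 0.0238 and an adjusted p of 0.179. DESeq2 gave an adjusted p of 0.0817, and edgeR on all circles, unfiltered, gave 0.730. The fold change became -8.85 with RPAD 1 left out and -9.40 with RPAD 2 left out. Of the tested circles, 15.8% were lower in RPAD at an unadjusted p under 0.05 and 24.9% were lower without overlap of the groups. Both total RNA libraries read 67 exonic circles 20 times or more, and 12 of these (17.9%; 9.61 to 29.2), this one included, were at 0 throughout RPAD.

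Exon 4 of Jph1 also circularised by itself (chromosome 1 from 16993972 to 16994615), with 2 reads in total RNA 2 and 7 in RPAD 1. These 7 were the whole Jph1 signal of RPAD. A circle of exons 3 to 5 (859 nt, to 17006238, with 119 nt from exon 3) had 3 reads in total RNA 1, and its upstream intron is 75140 nt long. All 3 Jph1 circles contain exon 4, and 2 of them end at exon 5. The exon 4 to 5 circle held 27 of 30 Jph1 reads (90.0%; 73.5 to 97.9) in total RNA 1 and 30 of 32 (93.8%; 79.2 to 99.2) in total RNA 2.

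Ryr1 gave intronic circles alone, from 10 introns numbered between 31 and 101 in the transcript models to which the files assign them. The total RNA libraries read 5 introns each and shared 2 of them, introns 69 and 95. At intron 69 (675 nt, splice site at 29841942) RPAD 2 alone gave 386 reads and RPAD 1 none, with 10 and 15 from total RNA. It held 90.4% (87.2 to 93.0) of the Ryr1 reads of RPAD 2, against 10 of 24 and 15 of 49 in total RNA. Its log2 fold change of 1.21 (SE 3.09, edgeR adjusted p = 0.926) became -8.11 without RPAD 2 and 2.35 without RPAD 1. RPAD 2 read 73 splice sites 300 times or more, and 50 of them (68.5%; 56.6 to 78.9) were at 0 in RPAD 1.

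Intron 49 of Ryr1 (872 nt, splice site at 29856587) was read 6 times in total RNA 1, 2 times in RPAD 1 and 38 times in RPAD 2. Its log2 fold change was 0.10 (SE 2.40; edgeR adjusted p = 0.992), 6.81 without total RNA 1 and -3.10 without RPAD 2. Introns 82 and 90 had 12 reads each, all in total RNA 2, and intron 34 had 5, all in total RNA 1. The remaining 5 Ryr1 introns had 1 to 6 reads in all.

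At intron 69 the ends again covered a stretch nearly base by base. RPAD 2 listed 84 ends between 226 and 315 nt, ranking 11 of 1672 splice sites by number of ends, and the most read one held 13 of 386 reads. The total RNA libraries listed 7 ends between 232 and 307 nt and 13 between 231 and 338 nt. Since RPAD 2 listed nearly every position of its stretch, the number of ends shared with it carries no information. The median distance by reads was 280 nt in both total RNA libraries and 263 nt in RPAD 2. The 3 most read Ryr1 circles, from 29841654, 29841669 and 29841704, had 13, 11 and 11 reads, all in RPAD 2. All 104 entries of this site carried a score above 0, as did all 5 entries of Ryr1 intron 95 and all 7 of the Cacna1s site at 138007540. At Ncam1 these were 27 of 48 entries of intron 1 and, under the 2 models of intron 12, 0 of 86 and 1 of 39. Over all intronic entries in the files the share was 36.4%.

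**Figure D4:**
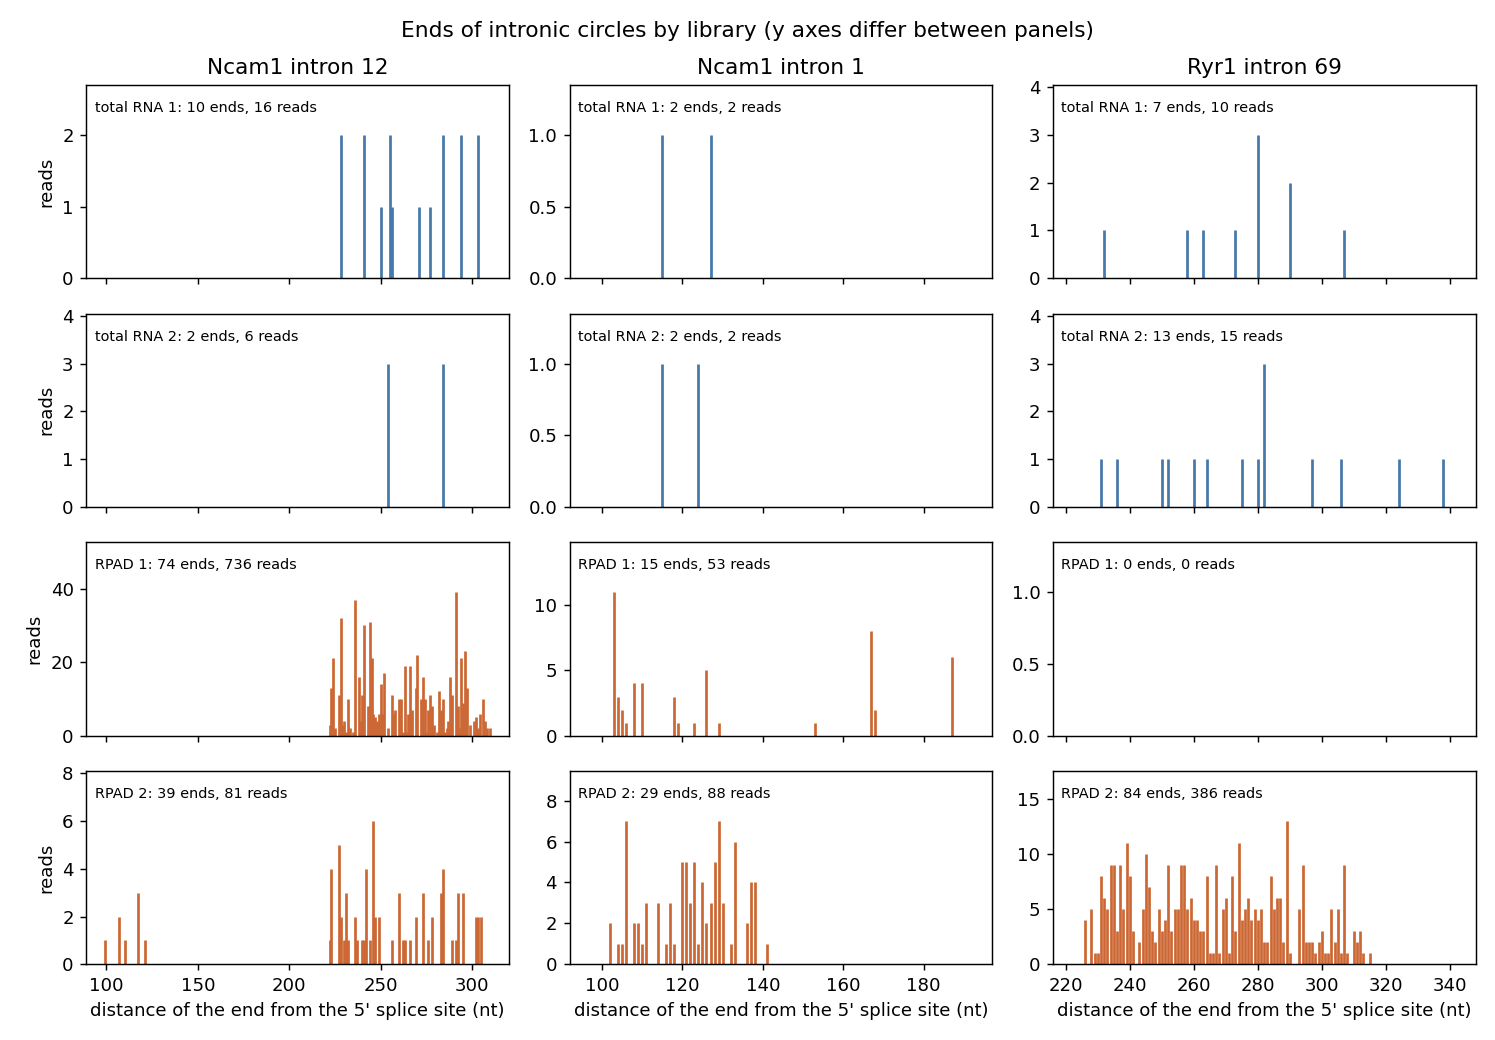
Reads (y axis, scale differs by panel) by distance of a circle's end from its 5' splice site in nt (x axis) for 3 introns (columns) and 4 libraries (rows). Most ends of an intron fall in 1 stretch, 222 to 310 nt at Ncam1 intron 12 in RPAD 1 and 226 to 315 nt at Ryr1 intron 69 in RPAD 2; RPAD 2 has 5 more ends between 99 and 121 nt at Ncam1 intron 12.

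Cacna1s gave 18 intronic circles from 6 introns and no exonic one. Intron 34 (2658 nt, splice site at 138004785) had 9 reads over 8 ends in total RNA 1 and 0 in the other libraries. The next intron, 1015 nt with its splice site at 138007540 and numbered 35 or 34 by model, had 1 read in total RNA 1 and 22 in RPAD 1. The 3 most read Cacna1s circles started there and measured 103, 126 and 101 nt, with 10, 5 and 3 reads in RPAD 1 and 0 elsewhere. The other 4 introns had 1 read each, 1 of them a circle of 16025 nt inside an annotated intron of 55242 nt. No Cacna1s circle and no Ryr1 circle passed the low-count filter, so those genes were tested only as sums.

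The intronic circles of the 3 genes ended far from the 3' end of the intron, as most intronic circles in the files did. Of the 319, from 19 splice sites, none ended within 100 nt of it, and the nearest lay 337 nt away. Over all intronic circles in the files, 1.66% ended within 100 nt. Of the 319, 317 were at most 400 nt long, with a median of 238 nt, and the median over all intronic circles was 155 nt (quartiles 122 and 225). Circles of 1 splice site share their source and are not independent, so no test was made. The share of circles listed in a single library was 69.6% of 158 at Ncam1, 33.3% of 3 at Jph1, 86.2% of 145 at Ryr1 and 94.4% of 18 at Cacna1s, with 90.6% over all circles in the files; these shares were not tested against each other.

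Few members could be tested one by one. Of the 324 circles 3 passed the low-count filter (2 of Ncam1 and 1 of Jph1), and of 24 junction sites 6 did. A circle passes if its level is high enough in 2 libraries, so the 2 with an unadjusted p under 0.05, the 801 nt Ncam1 circle and the Jph1 circle of exons 4 and 5, passed through 1 group alone.

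The hosts most like each locus in level were found as those with the smallest Euclidean distance of log2 reads per 10000 (0.1 added) over the 4 libraries, among 737.0 hosts with at least 100 reads. For Ncam1 they were the host on chromosome 11 from 54792610 to 54822611 (45, 18, 995 and 607 reads; distance 1.75) and that on chromosome 1 from 130048321 to 130132203 (29, 18, 1851 and 1881; 1.79). For Jph1 they were chromosome 5 from 52557766 to 52576142 (38, 50, 21 and 0; 1.58) and chromosome 4 from 59220633 to 59230190 (42, 55, 5 and 4; 1.91). For Ryr1 they were chromosome 18 from 61219844 to 61239639 (29, 48, 7 and 528; 1.34) and chromosome 8 from 63993882 to 64356712 (21, 38, 0 and 300; 1.38). For Cacna1s, chromosome 6 from 97136546 to 97153588 (6, 1, 95 and 0; 2.39) and chromosome 2 from 73680417 to 73701295 (6, 1, 116 and 0; 2.63) were nearest. Reads are given in the order total RNA 1, total RNA 2, RPAD 1, RPAD 2, and over only 4 libraries such a likeness is a description.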

How the data were processed

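Circular RNAs of 4 C2C12 libraries were read from the authors' deposited lists, 1 per library. The values are counts of reads over each back-splice junction, not normalized, per the file headers, and no circle is listed at 0. A deposited score of 0 to 3 per junction, which no label explains, served only for 1 alternative. Libraries had 17 PCR cycles, per the labels' protocols. The submitters' processing notes name mm9, Cufflinks 2.2.1, TopHat and cutadapt; which tool called the circles was not given in the sources used. Positions are mm9, counted from 1.

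Absent circles were set to 0. Transcript models with a common junction or intron formed one host, and each of the 4 windows was 1 host. edgeR 4.0.16 (R 4.3.3; quasi-likelihood, TMM, minimum count 5, minimum total 10, group as the only term) was fitted to all circles, hosts and junction sites, with Benjamini-Hochberg adjustment over all tested features. DESeq2 1.42.0 was an alternative, run without independent filtering. The scripts were tested on simulated data. The SE of an edgeR fold change is its size divided by the square root of F. scipy 1.17.1 gave exact permutation tests and intervals. Named items were every exonic circle with at least 10 reads in a library or listed in 3 libraries, the 3 most read intronic circles of a locus and the 2 nearest hosts. The members, lists and background read minimums of 20, 200 and 300 were chosen with earlier results of these data known. The files named 8067 transcripts, and 0 matched the name tables, so other genes of the pathway and marker genes were not analysed here, and sequences of the circles were not used here.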

Additional observations from a re-analysis of the deposited data

How the results depend on the processing

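The scaling, low-count filter, DESeq2, replicate block and left-out libraries were planned; junction sites as a unit and entries with score 0 alone were added after seeing the data. The order of the groups at Ncam1 and Jph1, in level and in circles listed, held under every alternative run. The number of circles listed depends on depth, however. Thinned to the smallest library, the difference in circles (RPAD minus total RNA) fell from 89.0 to 43.3 for Ncam1. For Jph1 it was -1.57 thinned and -1.5 unthinned. With 1 library left out the difference in reads per 10000 was 46.8 to 65.0 for Ncam1 and -8.66 to -7.49 for Jph1, and in circles listed 81.5 to 96.5 and -2.0 to -1.0. For Ryr1 these ranges were -9.77 to 12.4 and -28.0 to 74.0, and for Cacna1s -2.36 to 0.175 and -8.0 to 1.0. With score 0 alone, which drops all of Ryr1 intron 69, the Ryr1 difference was -5.99 per 10000 and -7.5 circles; thinned to the smallest library it was -2.91 circles. With at least 2 reads per circle the Cacna1s difference was 0.276 per 10000 and 1.5 circles. The log2 fold change of Ryr1 was -0.025 with totals alone, -2.34 with score 0 alone and -6.39 to 1.17 with a library left out; that of its intron 69 was -8.11 to 2.35, and that of its intron 49 was -0.031 with score 0 alone and -3.10 to 6.81 with a library left out. The cause was not tested beyond these settings. Ryr1 and Cacna1s have no value over exonic circles, since they had none. Calls with a library left out numbered 0 to 214 for circles, 0 to 557 for hosts and 0 to 570 for junction sites. DESeq2 called 104 hosts and 39 junction sites, and edgeR without the low-count filter called 2 hosts. A replicate block in edgeR gave 2 called hosts, and the log2 fold change was -2.50 for Ryr1 and -2.54 for its intron 69. Libraries with the same number deviated from their group means with a correlation of 0.0463 (circles), 0.0113 (hosts) and 0.0902 (junction sites), which with 2 pairs does not show that a number marks a shared culture. As a measure of depth, 3 reads are 0.772 and 0.834 per 10000 in total RNA and 0.199 and 0.157 in RPAD.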
